A study of Mus musculus with 12 samples.

Results

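The 35 genes described here encode heat shock proteins and the chaperones and co-chaperones of the cytosol, together with 3 chaperones of mitochondria, a collagen chaperone of the endoplasmic reticulum and 2 heat shock factors. They were chosen by symbol, as the rows of the count table whose Ensembl identifier maps to a member's symbol in GENCODE M21, and all 35 were found among the 54232 genes of the table. The study asked how B16F10 cells, a mouse melanoma line of C57BL/6 origin, come to survive T-cell attack and to form tumors again after immunotherapy. RNA of 12 libraries was sequenced, 3 in each of 4 groups. WT cells were untreated and in culture. The relapsed lines, named ITF1, Rel and ITM in the labels, came from B16F10 tumors under the skin that grew back after injection of immunotherapy, and their cells were sorted and grown to confluency before RNA was taken. The immunotherapy was a mixture of TNFα, an agent directed at CD40 and an antibody that binds TRP1, a protein of melanocytes. Tumor cells (Tumor 1, 3 and 4) were sorted from relapsed tumors in the same way, and their RNA was taken at once. For sorting, the tumors had been digested with collagenase and DNase while warm. Lyso cells were incubated with lysosomal granules of T cells, for 48 h by the labels, while the study's methods give a shorter time. The labels give an age of 6 weeks to all samples, that of the host mice, and 1 strain. Nothing states whether the 3 libraries of a group came from separate cultures or mice, so p-values measure the spread between these libraries only.

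Chaperones of the HSP70 family bind unfolded stretches of other proteins in cycles of ATP hydrolysis. HSP40 (J-domain) proteins start the cycle, and BAG and HSP110 proteins end it by releasing ADP. HSP90 matures kinases and receptors, small heat shock proteins hold unfolded proteins in solution without ATP, and the ring-shaped TRiC complex folds actin and tubulin. In heat or other protein stress, heat shock factor 1 (Hsf1) forms trimers that bind heat shock elements, tandem inverted repeats of nGAAn, and the inducible HSP70 genes, Hspa1a and Hspa1b, are its best-known targets.

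The start regions of the members show where such elements lie. RefSeq promoters of build GRCm38.p6, which run from 250 bases before to 50 bases after each start, were found for 28 of the 35 members, and 7 had none in the table. They were searched for pairs of facing units, GAANNTTC and TTCNNGAA. Each motif is its own reverse complement, so that 1 search covers both strands, and the 2 motifs overlap where 3 units follow each other. Among the 28 members, 14 (50%) held at least 1 pair, against 17% of all 27025 genes with a promoter. A run of 3 units was found in 5 members (17.9%), namely Hsph1, Chordc1, Dnajb6, Hspd1 and Hspe1, against 0.662% of genes; Hspd1 and Hspe1 start back to back, so theirs is the same run. Such a match is a description of letters and was not tested for binding. Those of the genes that the results turn on are shown from 5′ to 3′ on the strand of the gene, with matching units in capitals and with the upstream stretches ending at the base before the start.
Hspa1a (chr17:34972157-34972286, minus strand): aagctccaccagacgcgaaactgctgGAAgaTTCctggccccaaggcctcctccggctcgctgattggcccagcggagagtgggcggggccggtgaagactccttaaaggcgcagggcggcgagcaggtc
Hspa1b (chr17:34959239-34959368, minus strand): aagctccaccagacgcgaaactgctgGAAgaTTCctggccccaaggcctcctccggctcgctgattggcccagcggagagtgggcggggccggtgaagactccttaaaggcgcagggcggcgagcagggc
Dnajb4, at the downstream of its 2 starts (chr3:152193846-152193925, minus strand): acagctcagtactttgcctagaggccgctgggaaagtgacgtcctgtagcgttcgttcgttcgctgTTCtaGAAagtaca
Hspb1 (chr5:135887789-135887918, plus strand): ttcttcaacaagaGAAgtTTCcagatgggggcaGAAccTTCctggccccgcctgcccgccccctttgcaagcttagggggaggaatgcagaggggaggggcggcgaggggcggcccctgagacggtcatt
Chordc1, site of 30 bases across the start (chr9:18292259-18292288, plus strand): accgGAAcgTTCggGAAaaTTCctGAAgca
Bag3, site of 30 bases after the start (chr7:128523603-128523632, plus strand): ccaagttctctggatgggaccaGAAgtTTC

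The stretches of Hspa1a and Hspa1b were identical at 129 of 130 bases, and both carry a pair that starts 104 bases before the start of the gene. Hspb1 held a pair at 117 and another at 97 bases before its start. In Chordc1 a run of alternating units begins 4 bases before the start and continues past it, while the pair of Bag3 begins 43 bases after the start. No match was found in the promoters of Hspa12a, Hspa2, Hspa14, Bag2 or Serpinh1, which says only that these letters are not in the windows searched, and Cryab and Hsf1 had no promoter in the table.

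Counts on genes came to 1667398 to 16384021 per library in WT, 12749399 to 16402629 in the relapsed lines, 10895611 to 12675277 in Lyso and 3102442 to 5049496 in Tumor. WT 1, WT 2 and the 3 Tumor libraries were thus shallow, and 3 counts, the floor used here, stood for 1.70 CPM in WT 1 but for 0.177 in WT 3. CPM are counts relative to the total of the library, here scaled by the TMM factors of edgeR, and levels compared between genes are RPKM, CPM per kilobase of exon. The floors cover counting error only. Of all 54232 genes, 14924 passed edgeR's filter on low counts, among them all 35 members. Hspa1a and Hspa12a passed it only through their counts in the Tumor libraries, so their calls as higher in Tumor are not independent of the filter. Members took 1.09% to 1.48% of the counts on genes in a library. Melanocyte markers checked the label of the cells: all 10 of the list were above the floor in every library, and their summed level was 19810 to 28450 CPM in WT and 20550 to 22660 CPM in Tumor. Transcripts of the mitochondrial genome took 6.08% to 8.53% of counts in Lyso, highest in Lyso 1, against 2.7% to 5.51% elsewhere. In sorted Tumor cells all 10 fibroblast markers were above the floor, with a sum of 7877 to 10850 CPM against 84.3 to 142 in WT, and all 18 immediate early genes (Fos, Jun, Egr1 and others, which respond within minutes to stimuli that include tissue handling) were higher, with a sum of 5436 to 6633 against 514 to 671 CPM. Of the markers tested, 6 of 7 myeloid, 6 of 7 endothelial and 4 of 6 smooth muscle genes were higher as well, with sums of at most 77.7 CPM, and 0 of 4 T-cell genes. The remaining endothelial gene, Egfl7, was lower (log2 fold change -0.80, adjusted p = 0.0174 in edgeR). The part of these gene lists in the Tumor results below was not tested. In bulk samples, fewer cells of a type and less RNA per cell cannot be told apart.

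**Figure D1:**
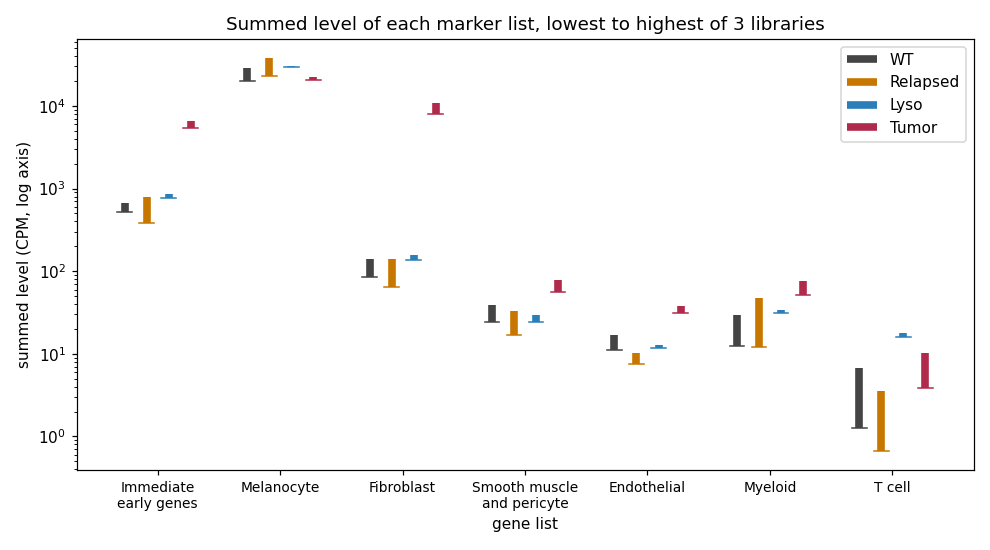
Summed level in CPM (log axis) of 7 marker lists in the 4 groups, each bar running from the lowest to the highest of 3 libraries. Fibroblast and immediate early genes stood apart in Tumor, T-cell genes were highest in Lyso (15.9 to 17.9 CPM), and melanocyte genes lay at 19810 CPM or more in all groups.

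The most abundant members per length were the constitutive chaperones. In WT, Hsp90ab1, the constitutive HSP90, was first with 1027 RPKM. It was followed by Serpinh1, which folds collagen, with 406 ± 55.2 RPKM (SD, n = 3), by the mitochondrial chaperonin Hspd1 with 345 RPKM, and by the constitutive HSP70 Hspa8 with 334 ± 128 RPKM. The gap between Hspd1 and Hspa8, neighbours in that order, was smaller than the SD of either, so these were not distinct. The mean of Serpinh1 also lay within the SD of Hspa8, so the place of Serpinh1 above Hspa8 is uncertain as well. At the other end lay both inducible HSP70 genes, with 1.58 ± 1.21 RPKM for Hspa1b and 0.107 RPKM for Hspa1a, and Hspa12a, an atypical HSP70, with 1 count in all of WT. Hsp90ab1 was first and Hspa1a and Hspa12a last in each of the 4 groups. Cryab, a small heat shock protein, was 6th of the 35 in WT, 4th in the relapsed lines, 8th in Lyso and 11th in Tumor. Multimapping reads were left uncounted, which touches members with copies: 61.7% of the 75-base words of Hspa1a also occur in transcripts of other genes, first of all Hspa1b, as do 55.8% of those of Hspa1b, 46.4% of those of Hspb1, 42.8% of those of Hsp90aa1 and 33% of those of Hspa8. For Hspd1 the share was 31%, for Dnajb6 19.1% and for Dnaja1 18.4%, and it was lower for the remaining members. Levels of the genes named here for shared words may be underestimated and are uncertain.

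**Figure D2:**
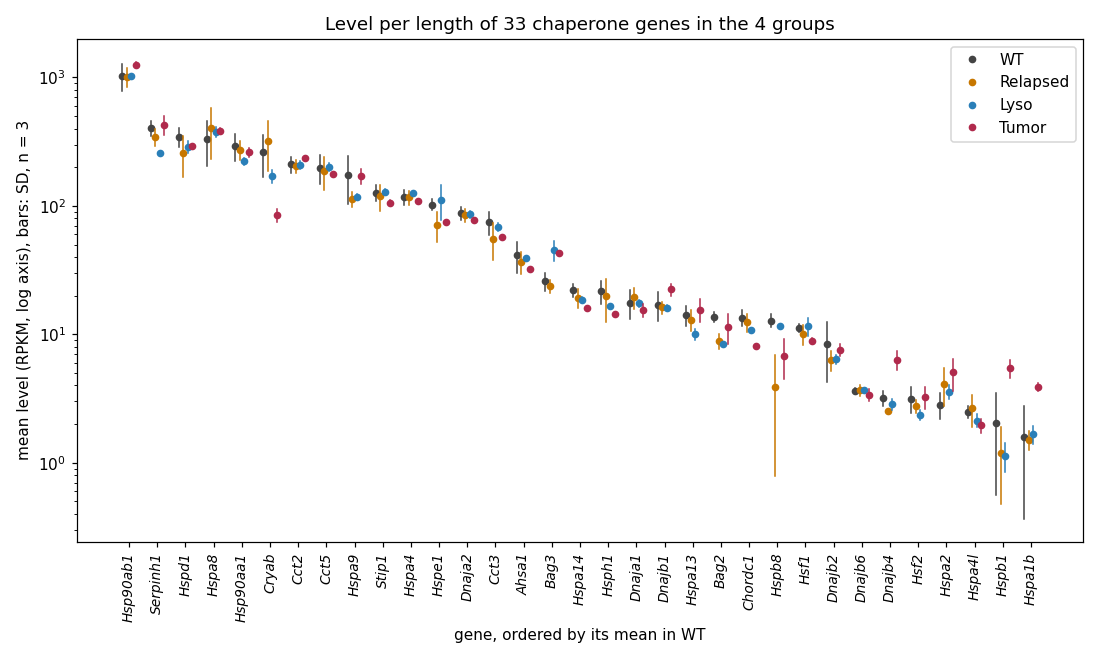
Mean level in RPKM (log axis) of 33 members in the 4 groups, ordered by the WT mean, with bars for the SD over 3 libraries; Hspa1a and Hspa12a, which have libraries at 0, are left out. Hsp90ab1 leads in every group, and Cryab in Tumor (84.9 RPKM against 263 in WT) lies below its level in the other groups.

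Between groups, few members passed the test. At an adjusted p under 0.05 (edgeR's quasi-likelihood test, Benjamini-Hochberg over all 14924 genes), Tumor cells differed from WT in 8 members. Of these, 5 were higher (Hspa1a, Hspa2, Hspa12a, Dnajb4 and Bag3), where 12.1% of all genes tested were higher. The other 3 were lower (Hspa14, Chordc1 and Cryab), where 6.94% were. Hspa1a and Hspa12a passed the low-count filter through the Tumor libraries only, which favours a higher call there. Fitted to Tumor and WT alone, the count stayed at 8 but split into 2 higher (Dnajb4 and Bag3) and 6 lower. Hsph1, Hspb8 and Hspe1 were gained, and Hspa2 was no longer called. Hspa1a and Hspa12a did not pass the low-count filter in that fit and were not tested. Of all genes tested in it, 11% were higher and 5.83% lower. Lyso cells differed in 4 members, with Bag3 higher, where 3.5% of all genes were, and Hspa1a, Bag2 and Serpinh1 lower, where 1.21% were. No member was called in the relapsed lines, where 0.0134% of all genes were higher and 0.0268% lower. In Tumor the members' share was close to that of all genes, and is no result about the members as a set, and in Lyso it rests on 4 genes. Over all genes, the split in Lyso was 522 higher and 181 lower, and 440 and 337 when scaled by library size alone. The median log2 fold change of the 35 members was -0.11 in Tumor, -0.19 in Lyso and -0.14 in the relapsed lines, while that of all genes tested was 0.0014, -0.0048 and 0.0077. These 3 comparisons share the WT libraries. The 95% interval of the change stayed within 1 log2 unit on either side of 0 for 24 members in Tumor, 24 in Lyso and 27 in the relapsed lines, and for the others it reached beyond.

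**Figure D3:**
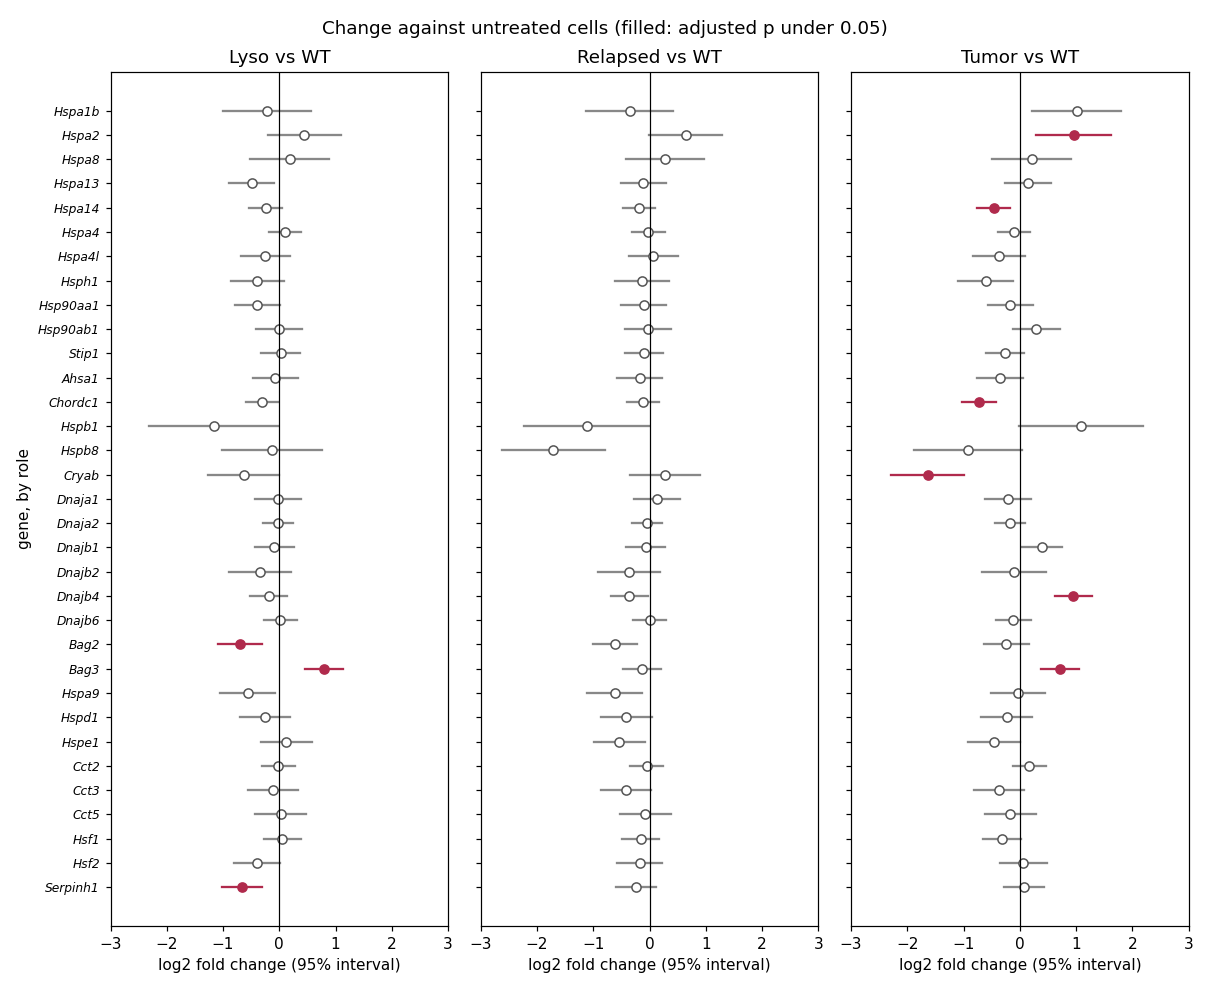
Log2 fold change against WT with its 95% interval for 33 members in the order of their roles, in Lyso, relapsed lines and Tumor; filled points passed an adjusted p under 0.05. Hspa1a and Hspa12a, whose intervals run beyond the axis, are left out. Bag3 lay to the right in Lyso (0.79) and Tumor (0.71), and Cryab furthest to the left in Tumor (-1.64).

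Of the inducible HSP70 genes, Hspa1a was near the floor in culture and called as higher in Tumor, while Hspa1b was above the floor in every library. Hspa1a (chromosome 17, 34969190 to 34972156, minus strand of GRCm38) had 0, 1 and 9 counts in the WT libraries, 0, 1 and 0 in ITF1, ITM and Rel, 0 in each Lyso library, and 6, 12 and 10 in Tumor 1, 3 and 4. Every Tumor library, at 1.95 to 2.42 CPM, was above every other library, the highest of which was WT 3 at 0.531. Over summed counts, the rate in Tumor was 4.80 times that of WT, with a counting interval of 2.27 to 11.1, and edgeR gave a log2 fold change of 2.30 ± 0.56 (SE, adjusted p = 0.0157). The call in Tumor against WT is lost in DESeq2 (2.46, adjusted p = 0.073), without WT 3, where the fitted change grew to 3.16 (adjusted p = 0.0769), and without Tumor 3 (2.24, 0.0635) or Tumor 4 (2.27, 0.0525). In Lyso, with 0 counts in the group, Hspa1a was called as lower than in WT (adjusted p = 0.025 in edgeR). The counting interval of the rate ratio of Lyso to WT ran from 0 to 0.279. That call rests on 10 counts in WT, of which 9 are from WT 3, and is lost without WT 2, WT 3 or any 1 Lyso library (adjusted p of 0.0551 to 0.298). The fitted change of -5.11 became -4.13 without WT 3, and both depend on the prior count.

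Hspa1b (chromosome 17, 34956436 to 34959238, minus strand) measured 2.83, 2.11 and 8.32 CPM in WT 1 to 3, 5.07, 3.71 and 3.95 in ITF1, ITM and Rel, 4.53, 4.005 and 5.43 in Lyso 1 to 3, and 10.7, 10.3 and 11.8 in Tumor 1, 3 and 4. All Tumor libraries lay above all others, with WT 3 the nearest. The change in Tumor against WT was 1.01 ± 0.37 and missed the threshold (adjusted p = 0.0759), but passed it without WT 3 (2.16, adjusted p = 0.0022). With the counts of both copies summed, an alternative added after the data were seen, the pair rose by 1.18 on the log2 scale in Tumor (adjusted p = 0.0351) and had a change of -0.31 in Lyso (adjusted p = 0.706). On its exonic bases, 19.0% of Hspa1a is also covered by Gm20481 on the opposite strand, and the strand setting of the counting is not given in the sources used here.

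Among the other HSP70 genes, Hspa8, the constitutive form, showed no call in any comparison. It measured 824, 1892 and 1588 CPM in WT, 905, 2333 and 1953 in ITF1, ITM and Rel, 1798, 1555 and 1532 in Lyso, and 1588, 1671 and 1724 in Tumor. The spread inside WT and the relapsed lines exceeded every difference between groups. Hspa2, best known from spermatogenesis, measured 9.06, 7.60 and 5.66 CPM in WT, 9.22, 8.39 and 15.0 in ITF1, ITM and Rel, 10.6, 9.59 and 8.26 in Lyso, and 9.10, 14.7 and 16.2 in Tumor. Its lowest Tumor library thus lay just above the highest WT library, and the change of 0.95 ± 0.31 (adjusted p = 0.0483 in edgeR) is lost under 9 of 15 alternatives, among them any fit without WT 2, WT 3, Tumor 3 or Tumor 4 (adjusted p of 0.0837 to 0.234). For Tumor against WT, here and below, the 15 count the same fit without WT 3 both as its own alternative and among the libraries left out. Hspa12a had 1 count in WT, 0 in the relapsed lines, 0 in Lyso and 19 in Tumor, at 0.9752, 2.42 and 0.942 CPM in Tumor 1, 3 and 4. The rate ratio of Tumor to WT was 32.6, with a counting interval of 5.18 to 1350 (adjusted p = 0.00753 in edgeR, 0.0541 in DESeq2, and 0.115 without WT 3, where the fitted change went from 4.66 to 6.71). Against the groups with 0 counts, the counting interval of the rate ratio began at 12.8 for Tumor to Lyso and at 17 for Tumor to the relapsed lines. Hspa14, which works with the ribosome, was at 79.2, 100.1 and 87.7 CPM in WT, 80.2, 89.8 and 63.9 in ITF1, ITM and Rel, 70.3, 78.6 and 76.6 in Lyso, and 67.3, 62.6 and 63.8 in Tumor. All Tumor libraries lay below all WT libraries, with a change of -0.47 ± 0.14 (adjusted p = 0.0315) that 9 of 15 alternatives do not call, with adjusted p up to 0.11; leaving out WT 2, WT 3 or any 1 Tumor library loses it. Hspa14 shares 7.91% of its exonic bases with Gm45902 on the same strand. Hspa13, a microsomal HSP70, passed only between Tumor (87.6 to 131 CPM) and Lyso (60.6 to 74.4 CPM), with a change of 0.64 ± 0.18 (adjusted p = 0.0226) that was not called without Tumor 1, Tumor 3, Lyso 1 or Lyso 3.

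Of HSP90, its co-chaperones and the HSP110 exchange factors, 1 of 8 members was called over the 6 comparisons fitted to all groups. In these, 0.0134% to 14.2% of all genes tested were higher and 0.0268% to 10.5% lower. Fitted to Tumor and Lyso alone, Hsp90aa1 and Hsp90ab1 were also called as higher in Tumor, and Stip1, Ahsa1, Hspa4 and Hsph1 as lower. In that fit 24.6% of all genes tested were higher and 22.2% lower. Chordc1, a zinc-binding partner of HSP90, measured 117, 95.8 and 89.9 CPM in WT 1 to 3, 81.4, 110 and 87.2 in ITF1, ITM and Rel, 81.8, 79.1 and 82.2 in Lyso, and 63.7, 59.8 and 58.9 in Tumor. Tumor libraries were below all 9 others. The change of Chordc1 was -0.72 ± 0.14 against WT (adjusted p = 0.00269, edgeR), -0.61 ± 0.13 against the relapsed lines (adjusted p = 0.00601) and -0.42 ± 0.13 against Lyso (adjusted p = 0.0379). The call against Lyso was lost when any 1 Tumor or Lyso library was left out, with library size only, when thinned to the shallowest library and with the replicate number as a block. Against WT Chordc1 stayed past the threshold under all 15 alternatives, with adjusted p of at most 0.0144. Hsp90aa1, the inducible HSP90, and Hsp90ab1 had changes of -0.17 and 0.29 in Tumor against WT, and their intervals ran from -0.57 to 0.23 and from -0.12 to 0.71. Stip1, which links HSP70 to HSP90, and Ahsa1, which stimulates the ATPase of HSP90, had changes of -0.27 and -0.35 (adjusted p = 0.275 and 0.212). Of the HSP110 genes, Hsph1 came nearest with a change of -0.60 (adjusted p = 0.0796), Tumor at 100.3 to 108 CPM being below WT at 125 to 190 CPM, while Hspa4 and Hspa4l had changes of -0.10 and -0.37.

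The small heat shock proteins went different ways. Cryab, which is expressed in lens and muscle and binds intermediate filaments, measured 249, 384 and 533 CPM in WT 1 to 3, 697, 310 and 418 in ITF1, ITM and Rel, 286, 232 and 236 in Lyso, and 110.5, 128 and 138 in Tumor. Tumor libraries were below all 9 others, by a fold of 3.11 against WT. The log2 fold change of Cryab was -1.64 ± 0.30 against WT (adjusted p = 0.0021, edgeR), -1.92 ± 0.30 against the relapsed lines (adjusted p = 0.000591) and -1.0 ± 0.29 against Lyso (adjusted p = 0.025). The first of these held under all 15 alternatives, with values of -1.88 to -1.33, and the last was lost when thinned and when any 1 Tumor or Lyso library other than Lyso 2 was left out. Cryab shares 17.0% of its exonic bases with Hspb2 on the opposite strand, and Hspb2, another small heat shock protein, was lower in Tumor as well, at 19.3 ± 4.45 against 35.1 ± 3.07 CPM (log2 fold change -0.86, adjusted p = 0.0377), so that reads of these neighbours may not be separable. Hspb1, the actin-associated HSP25, was scarce, with 0.566, 2.11 and 3.60 CPM in WT, 1.84, 0.419 and 1.41 in ITF1, ITM and Rel, 1.51, 1.02 and 0.972 in Lyso, and 5.85, 4.63 and 6.36 in Tumor. Every Tumor library was above every other. The change of Hspb1 was 2.25 ± 0.51 against Lyso (adjusted p = 0.00602) and 2.21 ± 0.49 against the relapsed lines (adjusted p = 0.007), and 1.08 ± 0.51 against WT, which missed the threshold (adjusted p = 0.163). Hspb1 had 68 counts in all of Tumor, and neither call was made when thinned to the shallowest library. The call against the relapsed lines was also absent with at least 10 counts required in every library, since ITM had 7.

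Hspb8, which works with Bag3 in selective autophagy, was lower in every relapsed line than in any WT or Lyso library. It measured 27.7, 22.0 and 25.1 CPM in WT, 22.6, 22.8 and 22.8 in Lyso, 18.5, 9.86 and 11.5 in Tumor, but 3.07, 14.3 and 5.16 in ITF1, ITM and Rel, so that the lines themselves spanned 4.66-fold. Against WT the change was -1.71 ± 0.43 (adjusted p = 0.174 in edgeR, where DESeq2 made the call), and Lyso was higher than the relapsed lines by 1.58 ± 0.41 (adjusted p = 0.0337). That last call was lost when any library other than ITM was left out, and in a fit of these 2 groups alone.

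Of the 6 HSP40 genes, Dnajb4 alone was called against WT. It measured 25.5, 26.2 and 32.1 CPM in WT 1 to 3, 21.4, 22.0 and 23.0 in ITF1, ITM and Rel, 23.8, 27.7 and 23.6 in Lyso, and 65.0, 46.5 and 53.9 in Tumor. Each Tumor library exceeded each of the others. The change was 0.95 ± 0.15 against WT (adjusted p = 0.000938, edgeR), 1.14 ± 0.15 against Lyso (adjusted p = 0.000141) and 1.31 ± 0.15 against the relapsed lines (adjusted p = 4.06e-05), and against WT it held under all 15 alternatives (0.82 to 1.09). Dnajb1, the canonical partner of inducible HSP70, was at 63.7, 72.7 and 78.4 CPM in Tumor against 41.3, 68.4 and 53.4 in WT and 54.5, 48.3 and 51.3 in Lyso, and passed only against Lyso (0.48 ± 0.16, adjusted p = 0.0393), a call lost when any 1 Tumor or Lyso library was left out, without a filter on low counts and with the replicate number as a block. Changes of Dnaja1, Dnaja2, Dnajb2 and Dnajb6 in Tumor against WT lay between -0.21 and -0.10, none of them called.

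Bag3, the co-chaperone of HSP70 that is induced in protein stress, was the member called as higher in both Lyso and Tumor. It measured 54.9, 76.0 and 68.5 CPM in WT 1 to 3, 52.2, 66.0 and 64.1 in ITF1, ITM and Rel, 139, 106 and 103 in Lyso 1 to 3, and 114, 110 and 104 in Tumor 1, 3 and 4. No library of Lyso or Tumor overlapped with one of WT or the relapsed lines. The rise over WT was 1.73-fold in Lyso (0.79 ± 0.15, adjusted p = 0.0102, edgeR) and 1.63-fold in Tumor (0.71 ± 0.16, adjusted p = 0.00671), 2 comparisons that share the WT libraries. Against the relapsed lines it was 0.93 ± 0.15 in Lyso (adjusted p = 0.00238) and 0.84 ± 0.15 in Tumor (adjusted p = 0.00161), and between Tumor and Lyso the difference was -0.085, with an interval of -0.41 to 0.24. In Tumor the call against WT held under all 15 alternatives. In Lyso it held under 13, and was lost without Lyso 1, the library with the largest mitochondrial share (0.64, adjusted p = 0.0526), and with WT 3 as the only control (0.75, adjusted p = 0.0933). T-cell genes summed to 15.9 to 17.9 CPM in Lyso against 1.27 to 6.79 in WT, where 10 of the 12 genes were at 0 in all libraries, and the granule protease Gzmb, 0 in WT, had a mean of 5.95 CPM in Lyso. Of the 4 T-cell genes tested 3 were higher, and their part in the Lyso values was not tested.

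Bag2, which inhibits the ubiquitin ligase CHIP, moved the other way in Lyso. It measured 41.9, 45.6 and 38.1 CPM in WT, 25.0, 31.3 and 24.9 in ITF1, ITM and Rel, 25.2, 25.9 and 25.4 in Lyso, and 24.4, 38.9 and 41.7 in Tumor. Lyso and the relapsed lines lay below WT in every library, while Tumor 1 stood apart from the other 2 Tumor libraries. The change in Lyso was -0.71 ± 0.18 (adjusted p = 0.0431, edgeR), and in the relapsed lines -0.62 ± 0.18 (adjusted p = 0.248). The call in Lyso was lost whenever any 1 of the WT or Lyso libraries was left out (adjusted p of 0.0628 to 0.146).

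Serpinh1 (HSP47), the collagen chaperone, measured 996, 1124 and 855 CPM in WT 1 to 3, 935, 885 and 703 in ITF1, ITM and Rel, 652, 607 and 627 in Lyso, and 1237, 1028 and 879 in Tumor. Lyso was below all other libraries. The change in Lyso against WT was -0.66 ± 0.16 (adjusted p = 0.0385, edgeR), a call lost without WT 1, WT 2 or any 1 Lyso library (adjusted p of 0.0518 to 0.155). Tumor exceeded Lyso by 0.74 ± 0.16 (adjusted p = 0.00548) and did not differ detectably from WT (0.080, interval -0.27 to 0.43). Fibroblasts make collagen and express Serpinh1, and the fibroblast sum given above was 7877 CPM or more in each Tumor library, with Col1a1 at a mean of 2224 CPM against 4.35 in WT; its part in the Tumor level was not tested.

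The heat shock factors were not called in any comparison fitted over all groups. Hsf1 measured 75.3, 85.3 and 77.7 CPM in WT, 80.9, 76.2 and 56.7 in ITF1, ITM and Rel, 97.6, 77.5 and 71.8 in Lyso, and 64.0, 66.0 and 60.3 in Tumor. Tumor lay below every WT library, yet the change of -0.32 ± 0.15 missed the threshold (adjusted p = 0.17, edgeR), and in Lyso it was 0.051 with an interval of -0.28 to 0.38. Hsf2, at 24.9 to 37.9 CPM in WT, had a change of 0.059 in Tumor and of -0.40 in Lyso (adjusted p = 0.272). The mitochondrial chaperones Hspd1, Hspe1 and Hspa9 and the TRiC subunits Cct2, Cct3 and Cct5 were not called either, with changes between -0.62 and 0.17 across the 3 comparisons with WT. Hspd1 and Hspe1, the chaperonin and its lid, are read from a shared start region in opposite directions. Hspe1 reached 221 CPM in Lyso 1, against 138 and 134 in Lyso 2 and 3, the same library that was highest for Bag3 and Hsf1.

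**Figure D4:**
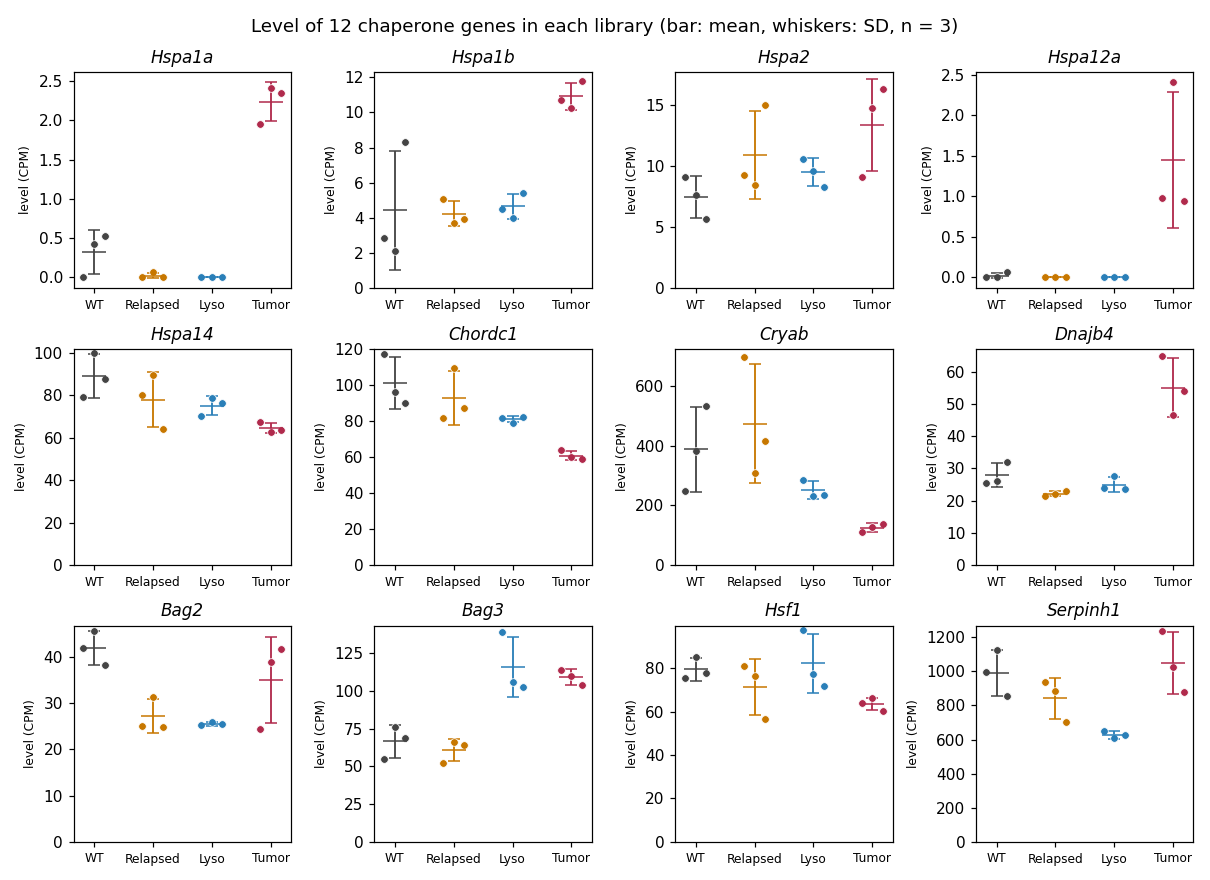
Level in CPM of 12 members in each library, by group, with points for libraries and bars for mean and SD (n = 3). Dnajb4 and both inducible HSP70 genes stood above all other libraries in Tumor, Cryab and Chordc1 below them, and Bag3 was above WT in both Lyso and Tumor.

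Tumor and Lyso, compared with each other, differed in 10 members. Higher in Tumor were 8 (Hspa1a, Hspa1b, Hspa12a, Hspa13, Hspb1, Dnajb1, Dnajb4 and Serpinh1), where 14.2% of all genes tested were higher, and lower were 2 (Chordc1 and Cryab), where 10.5% were. Tumor and the relapsed lines differed in 8 members, with 6 higher (Hspa1a, Hspa1b, Hspa12a, Hspb1, Dnajb4 and Bag3), against 11.8% of all genes, and Chordc1 and Cryab lower, against 7.74%. Lyso exceeded the relapsed lines in Bag3 and Hspb8, where 4.87% of all genes were higher, and no member was lower, where 2.81% were. Hspa1a and Hspa12a, higher in Tumor in both comparisons, passed the low-count filter through the Tumor libraries only. Without Tumor 3, Hspa12a did not pass that filter and was not tested in either comparison. Between Tumor and Lyso, the call of Hspa1b was lost when any 1 library other than Lyso 3 was left out. Between Tumor and the relapsed lines, the call of Hspa1b was lost without Tumor 4. The count between Tumor and Lyso depended on which libraries set the spread. Fitted to those 2 groups alone, edgeR called 24 members (13 higher and 11 lower), and 24.6% and 22.2% of all genes tested in that fit. The biological coefficient of variation over the members, the relative spread between libraries beyond counting error, had a median of 0.0733 in Lyso and 0.0982 in Tumor but 0.219 in WT and 0.216 in the relapsed lines, and the fit of all groups shares 1 estimate. Among the 15 members gained were Hspb8 (-0.82), Hspe1 (-0.57) and Hsf1 (-0.37) with lower values and Hspa9 (0.53), Hsf2 (0.46) and Hsp90ab1 (0.31) with higher values in Tumor, at adjusted p of 0.00121 to 0.0234.

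Inside the groups, many members shared a highest or lowest library. WT 1 was the lowest WT library for 23 of the 35 members (65.7%), against 40.2% of all genes tested, and WT 2 the highest for 20 (57.1%), against 29.9%. Of the relapsed lines, ITM was the highest for 22 members (62.9%), against 32.4% of all genes, and ITF1 the lowest for 15 (42.9%), against 31.7%. Lyso 1 was the lowest Lyso library for 18 members (51.4%), against 38.9%, and Tumor 1 the lowest Tumor library for 17 (48.6%), against 37.1%. Hspa4, Hspa8, Hsph1, Ahsa1, Dnaja1, Dnaja2, Dnajb1, Bag3 and Hspd1 had all 4 of the places named for WT and the relapsed lines. For example, Hsph1 measured 125, 190 and 158 CPM in WT 1 to 3 and 94.1, 200.2 and 138 in ITF1, ITM and Rel, whereas the 3 Lyso libraries lay at 118 to 122 CPM. WT 1 was also the shallowest library. Members were not replicates of each other here, so these shares are a description of 12 libraries with no test.

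**Figure D5:**
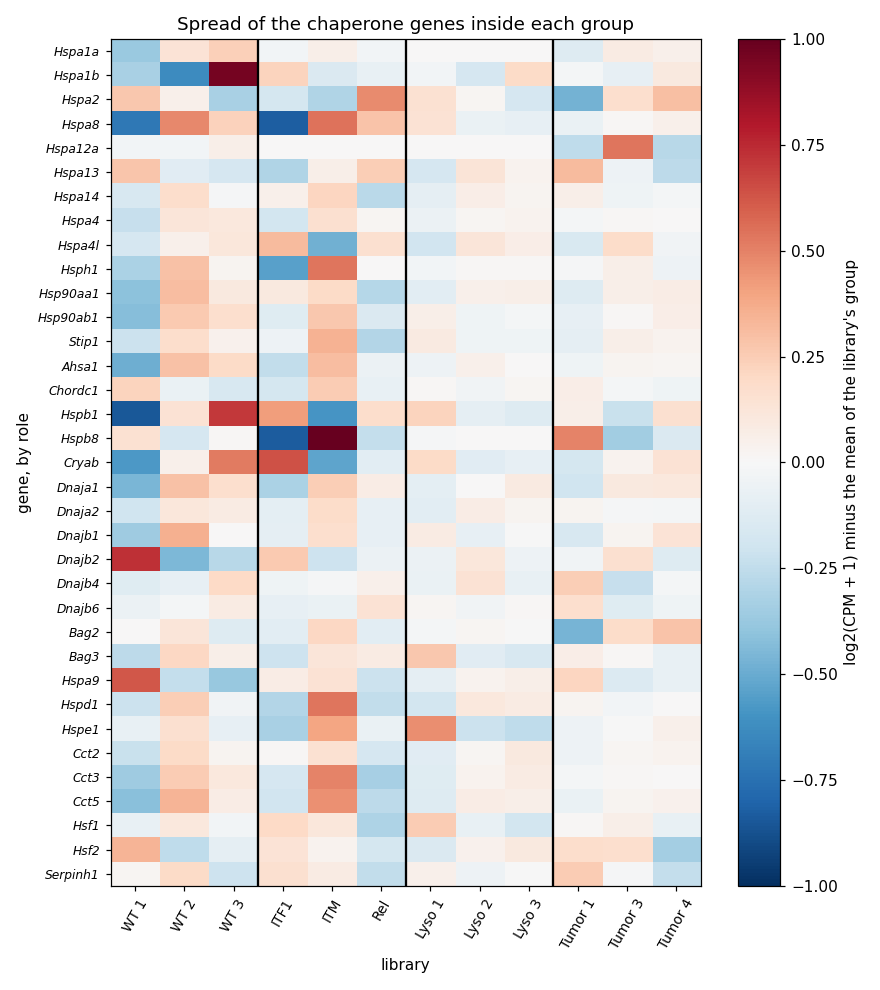
Deviation of each library from the mean of its own group for all 35 members, as log2(CPM + 1); red is above and blue below the mean, and the colour scale ends at 1 on either side. WT 1 and ITF1 were blue for many members, WT 2 and ITM red, and the Lyso and Tumor columns stayed pale for most.

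In the relapsed lines against WT, 7 of 35 members had an unadjusted p under 0.05 in edgeR, where 11% of all genes tested had, and none passed the adjustment. DESeq2 called 1 member, Hspb8, as lower, where it called 0.684% of its tested genes as higher and 0.518% as lower. The change was above 0 in 6 of the 35 members, with a median of -0.14 against 0.0077 over all genes tested. The share of all genes above 0 is not given here. WT 2 was the highest WT library for 57.1% of members, against 29.9% of all genes, so the members' changes are not independent of each other. The direction of the members as a set was not tested.

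Of 50 other chaperone genes in 8 lists (rest of TRiC, prefoldin, further co-chaperones, HSP40, BAG and small heat shock proteins, mitochondrial proteostasis and the endoplasmic reticulum), all 50 were tested. In Tumor against WT 2 were higher and 2 lower, where 12.1% and 6.94% of all genes tested were. In Lyso 0 were higher and 1 lower, where 3.5% and 1.21% of all genes were. In the relapsed lines the counts were 0 and 0, where 0.0134% and 0.0268% of all genes were higher and lower. Their median changes were -0.12, -0.10 and -0.099. Higher in Tumor were Dnajb9, an HSP40 of the endoplasmic reticulum induced by the unfolded protein response (133 ± 45.5 against 63.5 ± 30.6 CPM, 1.10, adjusted p = 0.037 in edgeR), and Dnajc5, a chaperone of secretory vesicles (0.41, adjusted p = 0.0353). Lower were Hspb2, given above, and Dnajb14, a membrane-bound HSP40 (-0.58, adjusted p = 0.014). In Lyso the gene lower was Bag5, another BAG protein, at 53.8 ± 4.04 against 80.5 ± 5.77 CPM (-0.58, adjusted p = 0.0255). All 3 further small heat shock proteins had values below 0 in Tumor, with a median of -1.59, and 1 of them, Hspb2, was called; Hspb6 (-1.59) missed the threshold at an adjusted p of 0.0556. The remaining TRiC subunits, 5 in number, had changes between -0.27 and -0.060 in all 3 comparisons, none called.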

How the data were processed

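RNA of 12 libraries, 3 in each of 4 groups, was sequenced by the study, and groups were taken from the sample labels. The submitters' processing notes name fastp 0.19.6, STAR 2.7.1a, DESeq2 1.24.0 and the build GRCm38. The authors deposited raw counts per gene, without normalization, with 4 further rows for reads on no single gene (43.5% to 44.8% of a column on no feature and 11.3% to 14.9% multimapping), which stayed out of library sizes and tests. The annotation release and strand setting are not given in the sources used here.

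Identifiers were matched to GENCODE M21 (54165 of 54232). The quasi-likelihood model of edgeR 4.0.16 (glmQLFit, glmQLFTest; R 4.3.3) was fitted to all 12 libraries with group as the only term, TMM factors and filterByExpr, which kept 14924 genes, and p-values were Benjamini-Hochberg adjusted over all of them. Each standard error was derived from the estimate and its F statistic. RPKM uses the exonic bases of GENCODE. Intervals of rate ratios are exact (95%) and cover counting error only. Shared words of 75 bases, the study's read length, were searched in GENCODE transcripts with Python 3.11.15. On simulated counts with the same spread in every group, edgeR recovered 199 of 200 genes changed 3-fold in Tumor against WT and made 8 other calls. Only genes with ample counts were changed, so the simulation does not cover scarce genes or a spread that differs between groups. The lowest p of an exact permutation of 3 against 3 libraries is 0.1, so none was used.

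Members and lists were chosen with earlier results of these data known. Values in every library are given for members called against WT (14 at most), for Hspa1a, Hspa1b and Hsf1, and of other lists for at most 2 genes; values by library of other members, such as Hspa8, Hspb1 and Hspb8, were chosen after they were seen. Alternatives were DESeq2 1.42.0, RLE factors, library size only, no filter, at least 10 counts in every library, only the compared groups, thinning to the shallowest library, a log2 threshold of 1, the replicate number as a block, WT 3 left out or alone, and each library left out. In Tumor against WT, the same fit without WT 3 is counted both as its own alternative and among the libraries left out. Summing Hspa1a and Hspa1b was added after the data were seen. With depth from 1667398 to 16402629 counts, deep libraries give the more precise values.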

Additional observations from a re-analysis of the deposited data

How the results depend on the processing

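Members called under each alternative moved as follows, and the cause was not tested unless the alternative itself leaves out samples or genes. A log2 fold change over 1 gave 1 in Lyso against WT instead of 4 and 3 in Tumor against WT instead of 8. It gave 5 in Tumor against Lyso instead of 10 and 1 instead of 2 in Lyso against the relapsed lines. The shares of all genes at that threshold are not given here. In brackets stand the shares of all genes tested in the same fit that were higher and lower. Thinning every library to the shallowest gave 1 in Lyso (3.16% and 0.789%) and 4 in Tumor (8.79% and 4.63%) against WT, 4 in Tumor against Lyso (9.98% and 7.59%) and 4 in Tumor against the relapsed lines (7.25% and 4.44%). A minimum of 10 counts in every library gave 5 in Tumor against WT (8.16% and 6.41%) and 5 against the relapsed lines (8.18% and 8.04%). DESeq2 called 1 member (0.684% and 0.518%) and no filter 1 (0.866% and 0.59%) in the relapsed lines against WT, and they called 4 (5.36% and 3.42%) and 4 (3.64% and 2.91%) in Lyso against the relapsed lines. A fit of only the compared groups called 24 in Tumor against Lyso (24.6% and 22.2%) and 1 in Lyso against the relapsed lines (4.46% and 1.87%). WT 3 as the only control gave 0 in Lyso against WT (1.32% and 0.759%), and leaving out WT 3, the deep control, gave 5 in Tumor against WT (7.95% and 3.23%). With 1 library left out in turn, the counts ranged as follows, with the ranges of the shares in brackets. Against WT, they were 0 to 2 in Lyso (1.94% to 4.02% and 0.26% to 1.94%) and 4 to 10 in Tumor (7.95% to 15% and 3.23% to 9.18%). In the relapsed lines against WT they were 0 to 2 (0% to 0.864% and 0% to 0.617%). In Tumor against Lyso they were 4 to 7 (10.2% to 11.2% and 6.16% to 7.22%). Against the relapsed lines they were 7 to 12 in Tumor (8.62% to 12.5% and 4.17% to 9.09%) and 1 to 6 in Lyso (2.56% to 6.12% and 0.708% to 5.56%). With the replicate number as a replicate block, 2 members were called in Lyso against WT (4.41% and 1.47%), 4 in Tumor against WT (9.77% and 3.65%) and 5 in Tumor against Lyso (11.3% and 7.51%). Whether the numbers pair the samples cannot be told. Same-numbered libraries correlated at -0.00809 to 0.0649 in their deviations and other pairs at -0.0528 to 0.0592, ranges that overlap. The relapsed lines were not part of the fit with a block.

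The sign turned under some alternatives for values that were not called. Hspa1b in Lyso ranged from -0.48 to 0.94 with a library left out (0.94 without WT 3), and in the relapsed lines from -0.62 to 0.79 (0.79 without WT 3), with 0.14 when thinned. In the relapsed lines with WT 3 as the only control, Chordc1 was at 0.047 and Cryab at -0.17, and Cryab ranged from -0.10 to 0.57 with a library left out (-0.10 without ITF1). Hsf1 in Lyso was at -0.049 with library size only and ranged from -0.091 (without Lyso 1) to 0.14. Serpinh1 in Tumor was at -0.015 without WT 3 and ranged from -0.053 (without Tumor 1) to 0.19. Library size alone moved the median of all genes by at most -0.0969, and the calls over all genes in Lyso against the relapsed lines from 727 higher and 420 lower to 635 and 581. Summing Hspa1a and Hspa1b was chosen after seeing the data. The cause was not tested. Depth limits Hspa1a and Hspa12a, which rest on 0 to 28 counts per group.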
